A study of Mus musculus with 6 samples.

Results

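The genes described here encode the best-known protein families of pre-mRNA splicing: the SR proteins, the hnRNP proteins, the SF3a and SF3b subunits of the U2 particle, and the Sm and other core proteins of the small nuclear ribonucleoproteins (snRNPs). They were chosen by gene symbol alone, as every row whose symbol began with Srsf or Sfrs and a digit, Hnrnp or Hnrp, Sf3a or Sf3b, or Snrp. This gave 52 of the 23284 symbols in the count tables, 12 SR, 20 hnRNP, 3 SF3a, 5 SF3b and 12 Sm and snRNP genes. Of these, 51 had enough reads to be tested. The exception was Snrpn, an imprinted Sm gene known mainly from neurons, which had 0 counts in all 6 libraries.

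Polyadenylated RNA had been sequenced from erythroblasts, the nucleated precursors of red cells, of C57BL/6 mouse embryos at E10.5. The cells were live and sorted as positive for both Ter119 and CD71, a red cell lineage antigen and the transferrin receptor. The series' design text names blood as the fetal source, while the samples are labelled as liver. Setd8 encodes the enzyme that adds a single methyl group to lysine 20 of histone H4. The 3 null libraries came from SETD8fl/fl embryos carrying EpoR Cre, a recombinase driven by the erythropoietin receptor locus, which is active in erythroid cells. Control replicates 1 and 3 were Setd8 +/+ with EpoRCre, and control replicate 2 was Setd8 fl/fl with EpoR WT and so without Cre. The labels do not say how many embryos gave each library, nor whether replicates came from separate embryos. The titles of 3 samples (control replicate 3, null replicate 2 and null replicate 3) end in a letter, and these are called the lettered set below. The other 3 (control replicate 1, control replicate 2 and null replicate 1) have no such letter and form the unlettered set. Null was compared with control within these 2 sets.

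Introns are removed by the spliceosome, which assembles anew on each pre-mRNA from the U1, U2, U4, U5 and U6 snRNPs. The 7 Sm proteins form a ring on most of these RNAs, and SF3a and SF3b let the U2 particle hold the branch point. SR proteins mostly bind exons and promote the use of nearby splice sites, whereas hnRNP proteins coat nascent RNA and often oppose it. In red cell biology the group is known for SF3B1 and SRSF2, which are recurrently mutated in human myelodysplastic syndromes, and erythroblasts change the splicing of many transcripts as they mature.

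Total assigned counts ran from 7756940 in control replicate 1 to 21434719 in control replicate 2, so that 3 counts corresponded to 0.140 to 0.387 CPM (assigned counts per 1000000), the unit used below after scaling by TMM factors. Setd8 itself stood at 73.9 and 74.8 CPM in the unlettered controls against 48.9 CPM in their null library, and at 203 CPM in the lettered control against 100.3 and 96.3 CPM in the lettered nulls. Its log2 ratio was -0.83 (SE 0.17, edgeR adjusted p = 0.00911), so Setd8 reads fell but stayed present. Globin transcripts took 37.1% to 45.2% of control counts and 26.5% to 39.9% of null counts. Y-linked transcripts were present in control replicate 1 and in all null libraries and not in control replicates 2 and 3. Summed over 10 macrophage markers, control libraries held 1.81 to 11.1 CPM and null libraries 33.7 to 90.2 CPM, and 3 of the 7 that could be tested passed as higher. Endothelial markers summed to 0.479 to 1.49 CPM against 5.74 to 20.6 CPM with Emcn at 0, and megakaryocyte markers to 27.9 to 48.0 CPM against 90.1 to 136.6 CPM, with 2 markers higher in each list. Granulocyte and mast cell markers summed to 0 to 1.91 CPM against 1.03 to 66.3 CPM, with Elane, Cpa3 and Ms4a2 at 0. Hepatic, mesenchymal and neural markers had overlapping sums, with Alb, Fgb and Dcn at 0. Erythroid markers summed to 349262 to 527566 CPM in controls and 215508 to 506150 CPM in nulls, sums made up mostly of globin, and of 13 tested 3 passed as lower and 1 as higher. Their part in the splicing gene results was not tested.

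Several genes of the SR, hnRNP and SF3b families fell in null erythroblasts, and no Sm or snRNP gene was called in either direction. In the test that adjusts for the title set, 15 of the 51 genes fell (29.4%, against 4.16% of all 10512 tested genes and 6.61% of tested genes above 10 CPM), and 1 was called higher (1.96%, against 8.65% of all and 8.98% of those above 10 CPM). By family, 6 of 12 SR genes, 7 of 20 hnRNP genes, 0 of 3 SF3a genes, 2 of 5 SF3b genes and 0 of 11 Sm and snRNP genes fell. At an unadjusted p under 0.05 the SF3a and the Sm and snRNP families had 2 genes each, all lower, and DESeq2 called 2 and 1 of them. The share of all genes at that unadjusted p was not counted for this fit. The gene called higher was Srsf12, which passed the filter on low counts through the null libraries alone, so its call is given as a description. The median log2 ratio of null to control was -0.44 over the 51 genes and 0.044 over all tested genes, and 43 of the 51 ratios lay below 0. Family medians were -0.45 for SR, -0.58 for hnRNP, -0.40 for SF3a, -0.46 for SF3b and -0.19 for Sm and snRNP genes. In bulk RNA, fewer cells of a type and less RNA per cell cannot be told apart.

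These calls rest on comparing libraries within the title sets. With the group as the only term, no splicing factor gene was called by edgeR (background 1.14% higher and 0.00951% lower), and the smallest adjusted p was 0.18. In that fit 12 of the 51 had an unadjusted p under 0.05, as did 1641 of all 10512 tested genes, a smaller share. A fit that also held the presence of Y-linked transcripts called 0 as higher (background 1.53%) and 2 as lower (background 0.590%), Srsf6 and Snrpf, with adjusted p = 0.0482 and 0.0377. Control replicate 1 was the only control with such transcripts, so the group term of that fit rests on this library. Snrpf stood at 24.6 CPM in it and at 2.92 to 9.58 CPM in the others. The log2 ratio of Snrpf was -1.55 in the set-adjusted fit and -3.27 in this one. The DESeq2 Wald test with the title set called 1 higher (background 12.0%) and 22 lower (background 8.39%). Leaving out control replicate 1, 2 or 3 left 7, 4 or 6 genes lower, leaving out null replicate 2 left 3, and leaving out null replicate 3 gave 17. The calls over all tested genes moved too. In the same order 223, 213, 180, 235 and 734 were lower, of 11276, 11105, 11095, 11041 and 10990 tested. Without null replicate 1, the only null library of its set, 0 were called by edgeR, and 20 had an unadjusted p under 0.05, 19 of them lower. Of all 10858 genes tested in that fit, 162 were called higher and 40 lower, and the unadjusted p over all genes was not counted. The median ratio stayed between -0.52 and -0.41 in all 6 of these fits. With globin genes left out of the tables, 15 fell and 1 was called higher.

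**Figure D1:**
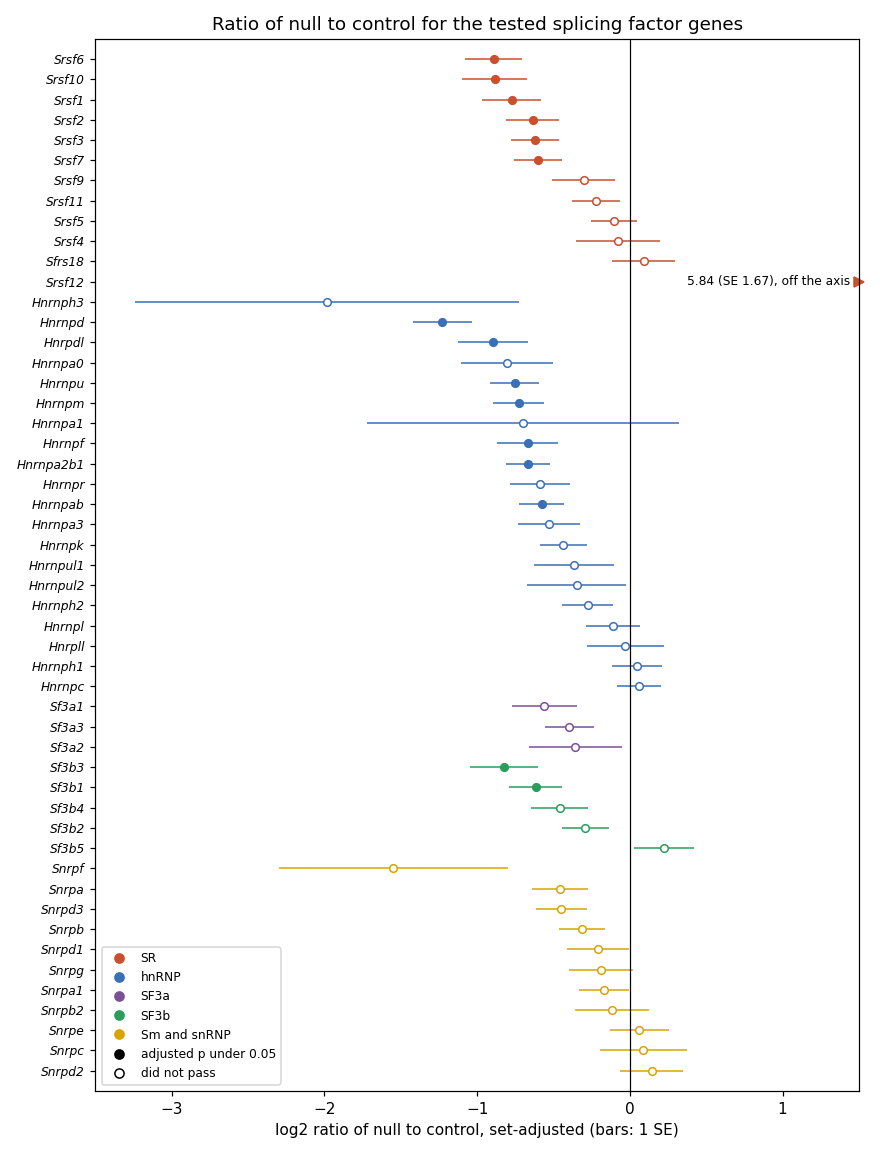
Log2 ratio of null to control, set-adjusted, for the 51 tested splicing factor genes ordered within each family, with bars of 1 SE. Filled points passed an adjusted p under 0.05, and 43 of the 51 points lie to the left of 0; Srsf12 (5.84) is off the axis.

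The lower summed level was visible in each null library taken alone, but not in each family. In null replicate 1 the Sm and snRNP genes summed to 116% of the mean of its controls. The most abundant genes weigh most in such sums. Summed over all splicing factor genes, the unlettered controls held 10641 and 11085 CPM and their null library 8265 CPM, or 76.1% of the control mean. The lettered control held 11110 CPM and the nulls 7475 and 8388 CPM, or 67.3% and 75.5% of it. On this TMM scale, with factors from 0.802 to 1.28, all 3 null sums lay below all 3 control sums. As a share of all assigned counts, the genes took 0.926%, 0.971% and 1.21% of control replicates 1, 2 and 3. Null replicates 1, 2 and 3 held 0.662%, 0.880% and 1.07%. There each null lay below the controls of its own set, but null replicate 3 lay above control replicates 1 and 2. As a share of counts that were not globin, the genes took 1.69%, 1.75% and 1.92% of the control libraries and 1.10%, 1.23% and 1.45% of the null libraries. Gene by gene, every null library lay below every control in 16 of the 51 (background 9.16%), and above in 1 (background 14.9%). Null libraries lay below all controls of their own set, in both sets, for 32 of the 51 (background 21.5%).

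To set the genes beside their regulatory sequence, the 150 bases before the RefSeq transcription start (GRCm38.p6) are shown for the 4 genes that fell with the smallest p, then for Hnrnpc, an hnRNP gene with a ratio near 0, and for Snrpe, the Sm gene with the highest level per kilobase of transcript. Each is written 5′ to 3′ on the gene's own strand, and capitals mark matches, on either strand, to CCAAT (the NF-Y box), GGGCGG (the GC box of Sp and KLF factors), TATAAA (the TATA box), TTCCCGC (an E2F site) or TTTGAA (the element of cell cycle genes known as CHR). The windows lie at chr5:99978939-99979088 (minus strand) for Hnrnpd, chr2:162931358-162931507 (plus) for Srsf6, chr1:178337816-178337965 (minus) for Hnrnpu, chr6:51469895-51470044 (minus) for Hnrnpa2b1, chr14:52104022-52104171 (minus) for Hnrnpc and chr1:133610281-133610430 (minus) for Snrpe.
Hnrnpd: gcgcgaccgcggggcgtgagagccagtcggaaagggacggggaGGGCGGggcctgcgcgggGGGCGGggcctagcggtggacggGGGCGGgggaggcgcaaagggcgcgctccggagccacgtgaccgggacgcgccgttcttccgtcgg
Srsf6: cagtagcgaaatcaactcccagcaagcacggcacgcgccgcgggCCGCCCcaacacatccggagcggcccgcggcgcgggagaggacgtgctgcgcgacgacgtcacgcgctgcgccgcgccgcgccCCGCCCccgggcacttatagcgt
Hnrnpu: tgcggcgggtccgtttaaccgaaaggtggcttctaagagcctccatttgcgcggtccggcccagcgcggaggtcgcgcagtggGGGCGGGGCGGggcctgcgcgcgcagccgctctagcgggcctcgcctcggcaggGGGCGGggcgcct
Hnrnpa2b1: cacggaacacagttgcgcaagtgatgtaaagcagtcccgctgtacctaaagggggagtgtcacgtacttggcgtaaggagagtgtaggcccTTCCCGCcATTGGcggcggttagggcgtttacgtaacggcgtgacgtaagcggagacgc
Hnrnpc: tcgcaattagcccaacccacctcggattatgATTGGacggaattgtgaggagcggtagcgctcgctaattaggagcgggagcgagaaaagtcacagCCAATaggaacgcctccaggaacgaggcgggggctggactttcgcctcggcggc
Snrpe: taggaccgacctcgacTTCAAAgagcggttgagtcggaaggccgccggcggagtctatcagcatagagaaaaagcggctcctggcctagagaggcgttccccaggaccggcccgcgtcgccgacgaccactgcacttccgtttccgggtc
The windows of Hnrnpd, Srsf6 and Hnrnpu held 3, 2 and 3 GC boxes, 2 of those of Hnrnpu overlapping, whereas that of Hnrnpa2b1 held an E2F match 59 bases and a CCAAT match 51 bases before the start. Hnrnpc had 2 CCAAT matches, at 119 and 54 bases, and Snrpe a single TTTGAA match at 134 bases. For Srsf6 and Hnrnpu the bases just after the RefSeq start were found in no GENCODE transcript of the gene. Their windows thus hold for the RefSeq start alone. Hnrnpa2b1 had 2 RefSeq windows, and one whose start was found in such a transcript is shown. RefSeq windows were found for 45 of the 52 genes, and for all 15 that fell. Over the full 250 bases before the start, the GC box was in 11 of the 15 genes that fell, in 20 of 28 that were not called and in 65.7% of 8320 tested genes. CCAAT was in 7 of 15, 14 of 28 and 41.5%, TATAAA in 4 of 15, 1 of 28 and 7.25%, TTCCCGC in 4 of 15, 4 of 28 and 8.62%, and TTTGAA in 1 of 15, 6 of 28 and 12.4%. These are descriptions of letters in the windows, without a test.

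Among SR genes, Srsf6, Srsf10, Srsf1, Srsf2, Srsf3 and Srsf7 fell, to between 53.9% and 66.0% of control. Srsf6, whose protein was first known as SRp55, stood at 92.3 and 72.4 CPM in the unlettered controls and 37.4 CPM in their null library. In the lettered set it stood at 399 CPM in the control and at 233 and 272 CPM in the nulls. Within each set the nulls lay below the controls, but the sets differed so much that the lettered nulls lay above the unlettered controls. Its log2 ratio was -0.89 (SE 0.18, adjusted p = 0.00961), with -1.13 within the unlettered and -0.66 within the lettered set. Srsf10 encodes SRp38, which represses splicing when it is dephosphorylated. It had 130.1 and 156.9 CPM in the unlettered controls against 62.1 CPM in the null, and 139.7 CPM in the lettered control against 80.9 and 107.8 CPM. Here all null libraries lay below all controls, and the log2 ratio was -0.89 (SE 0.21, adjusted p = 0.0187).

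Srsf1, the founding SR protein and once called SF2/ASF, was at 109.4 and 119.8 CPM in the unlettered controls and 62.1 CPM in the null, and at 319 CPM in the lettered control and 156 and 246 CPM in the nulls (log2 ratio -0.78, SE 0.20, adjusted p = 0.0246). Srsf2, or SC35, was at 121 and 139.8 CPM against 73.7 CPM, and at 567 CPM against 366 and 461 CPM (log2 ratio -0.64, SE 0.17, adjusted p = 0.0321). For both, the groups separated within each set and overlapped across the sets; for Srsf2 the mean of the 3 null libraries, 300.1 CPM (SD 202), was even above that of the 3 controls, 276 CPM (SD 252), since 2 of 3 nulls and 1 of 3 controls belong to the lettered set. Srsf3, the smallest classical SR protein, had 489 and 503 CPM in the unlettered controls and 306 CPM in the null, and 521 CPM in the lettered control and 316 and 402 CPM in the nulls. Srsf7, which has a zinc knuckle and is known as 9G8, had 468 and 494 CPM against 329 CPM, and 405 CPM against 227 and 289 CPM. In both of these genes all nulls lay below all controls, with log2 ratios of -0.62 (SE 0.16, adjusted p = 0.0253) and -0.60 (SE 0.16, adjusted p = 0.0269). Of the 50-base words in the transcripts of Srsf3, 31.5% also occur in other genes, including 4 pseudogenes, so reads of Srsf3 could be split between loci.

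**Figure D2:**
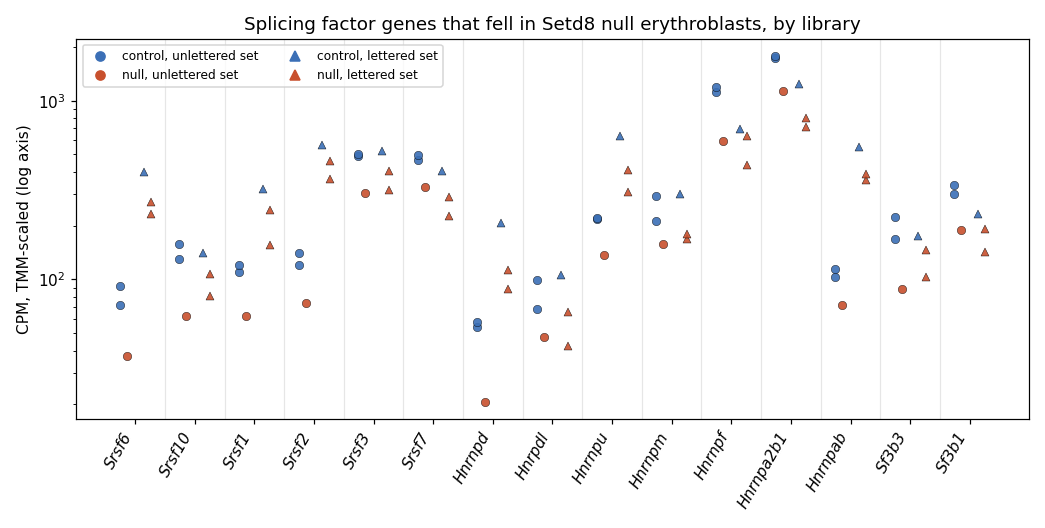
CPM per library (log axis) of the 15 splicing factor genes that fell, by family; circles are the unlettered set, triangles the lettered set, blue controls and orange nulls. Within each set every null point lies below the control points of its gene, while Srsf6, Srsf2, Hnrnpd and Hnrnpab stand far higher in the lettered set.

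Of the other SR genes, 5 were not called. Srsf5 was at 226 and 219 CPM in the unlettered controls, 231 CPM in their null, and at 254, 224 and 199 CPM in the lettered control and nulls, with a log2 ratio of -0.10 (SE 0.15). Srsf9 had 16.6 and 20.2 CPM against 18.2 CPM in the unlettered set and 122 CPM against 87.5 and 78.4 CPM in the lettered set, so that a lower level was seen in the lettered set alone; the interaction of group and set did not pass (adjusted p = 0.813). Srsf4, or SRp75, had 10.1 and 8.52 CPM against 11.2 CPM, and 64.4 CPM against 59.5 and 38.2 CPM. Srsf11 and Sfrs18, the latter now called Pnisr, had log2 ratios of -0.22 (SE 0.16) and 0.091 (SE 0.21).

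Srsf12, a relative of Srsf10, was nearly absent from the controls. It had 2, 0 and 0 counts in control replicates 1, 2 and 3 and 54, 80 and 21 counts in null replicates 1, 2 and 3. In CPM this is 0.296, 0 and 0 against 3.16, 4.11 and 1.09. Control counts summed to 2 and null counts to 155, a ratio of 65.2 after library scaling (exact 95% interval 17.7 to 543, counting error only). All null libraries lay above all controls. Reads in the null libraries alone took the gene past the filter, so it had to differ. Neither the interval, which pools the libraries of a group, nor the call by edgeR (adjusted p = 0.0407) is support for a change. The call held in 2 of the 6 fits that leave out 1 library, without control replicate 1 or null replicate 3, with adjusted p from 0.0432 to 0.215 over the 6. The fitted log2 ratio, 5.84 (SE 1.67), depends on the prior count and ran from 4.75 without control replicate 3 to 8.77 without control replicate 1 and 8.48 without null replicate 1. With Y-linked transcripts in the model it was 3.37 (adjusted p = 0.466).

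The median ratio of the hnRNP family was -0.61 among unlettered and -0.37 among lettered libraries, where those of SR (-0.51), SF3b (-0.50) and Sm and snRNP genes (-0.49) were lower. Hnrnpd, or AUF1, which binds AU-rich elements and is known for its part in mRNA decay, had the smallest p of all 51 genes. It stood at 54.2 and 57.8 CPM in the unlettered controls and 20.7 CPM in the null, and at 206 CPM in the lettered control and 88.7 and 112.8 CPM in the nulls. That is a log2 ratio of -1.23 (SE 0.19, adjusted p = 0.00202), or 42.7% of control, with -1.43 and -1.04 within the sets. Its closest relative Hnrpdl was at 68.3 and 98.7 CPM against 47.5 CPM, and at 105.6 CPM against 42.3 and 65.4 CPM. All nulls lay below all controls for Hnrpdl (log2 ratio -0.89, SE 0.23, adjusted p = 0.0256), while for Hnrnpd the lettered nulls lay above the unlettered controls.

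Hnrnpa2b1, which binds nascent RNA and was the highest per kilobase of transcript among the genes that fell, had 1734 and 1774 CPM in the unlettered controls and 1139 CPM in the null. The lettered control had 1243 CPM and the lettered nulls 711 and 804 CPM. Every null library lay below every control, and the log2 ratio was -0.67 (SE 0.14, adjusted p = 0.0112). Hnrnpm followed with 212 and 293 CPM against 158 CPM, and 299 CPM against 168 and 181 CPM, again with no overlap (log2 ratio -0.73, SE 0.17, adjusted p = 0.0164). Hnrnpf, which binds runs of G, had 1120.1 and 1194.5 CPM against 596 CPM and 697 CPM against 434 and 638 CPM, with no overlap but close values in the lettered set (log2 ratio -0.67, SE 0.20, adjusted p = 0.0486). It missed the threshold, with adjusted p = 0.0533, once genes were kept at a CPM above 1 in 3 libraries, and 43.2% of its 50-base words occur in other genes.

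Hnrnpu, the nuclear scaffold protein SAF-A, had 218 and 219 CPM in the unlettered controls against 136 CPM, and 637 CPM in the lettered control against 308 and 411 CPM. Hnrnpab, or CBF-A, had 103.6 and 114 CPM against 72.0 CPM, and 553 CPM against 362 and 389 CPM. Both fell within each set, with log2 ratios of -0.75 (SE 0.16, adjusted p = 0.011) and -0.58 (SE 0.15, adjusted p = 0.0251), and both stood higher in the lettered set whatever the genotype. With group alone the ratio of Hnrnpab was 0.093, the opposite sign.

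In all, 13 hnRNP genes were not called, and they ranged from genes near the threshold to steady ones. Hnrnpk, which binds C-rich RNA, had 1279.8 and 1361 CPM against 884 CPM, and 923 CPM against 695 and 812 CPM (log2 ratio -0.44, SE 0.15, adjusted p = 0.0897). Hnrnpa0, Hnrnpr and Hnrnpa3 had ratios of -0.80 (SE 0.30), -0.59 (SE 0.20) and -0.53 (SE 0.20). Hnrnpk and these 3 genes passed the DESeq2 Wald test, with adjusted p from 0.00959 to 0.0467, but not edgeR's. Hnrnpul1, Hnrnpul2, Hnrnph2, Hnrnpl and Hnrpll, the last known for regulating CD45 splicing in T cells, lay between -0.37 and -0.029. Hnrnpc, whose protein forms tetramers that bind uridine tracts, was at 365 and 357 CPM against 377 CPM, and at 319.8 CPM against 341 and 324 CPM. The nulls lay slightly above the controls within each set, the groups overlapped across the sets, and the log2 ratio was 0.059 (SE 0.14). Hnrnph1 was as level, at 134, 113 and 121 CPM in the unlettered controls and null and at 101, 113 and 105 CPM in the lettered control and nulls. Hnrnpa1 had only 0.873 to 4.95 CPM, and 46.7% of its 50-base words occur in other genes, among them 19 pseudogenes, so that its counts give little measure of the gene. Hnrnph3 had 18.1 CPM in control replicate 1 and 0.643 to 2.79 CPM in the other libraries, so its ratio of -1.98 (SE 1.26) hung on 1 library.

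SF3a and SF3b make up the part of the U2 particle that meets the branch point. Sf3b1, the scaffold subunit that is mutated in myelodysplasia with ring sideroblasts, was at 337 and 299.9 CPM in the unlettered controls against 189 CPM, and at 233 CPM in the lettered control against 142 and 191 CPM. Sf3b3 was at 169 and 224 CPM against 87.9 CPM, and at 175 CPM against 103.8 and 146 CPM. Both fell with no overlap between groups, Sf3b1 by 0.62 (SE 0.17, adjusted p = 0.0386) and Sf3b3 by 0.82 (SE 0.22, adjusted p = 0.0328) on the log2 scale. Sf3b2 and Sf3b4 were not called at ratios of -0.29 (SE 0.15) and -0.46 (SE 0.19). Sf3b5, the smallest subunit, was at 114 and 113 CPM against 178 CPM in the unlettered set and at 109.6 CPM against 103.6 and 87.3 CPM in the lettered set. The null library was thus above the controls in the first set and below in the second. Sf3a1, Sf3a2 and Sf3a3, the subunits of SF3a, had ratios of -0.56 (SE 0.21), -0.36 (SE 0.30) and -0.40 (SE 0.16). Sf3a1 had 63.9 and 71.7 CPM against 39.5 CPM and 55.0 CPM against 42.9 and 43.9 CPM, and Sf3a3 121 and 122 CPM against 89.1 CPM and 124 CPM against 92.9 and 103.1 CPM. No null value reached a control value in these 2 genes, and neither passed edgeR's test (adjusted p = 0.108 and 0.134), whereas DESeq2 gave 0.0307 and 0.0385.

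For 7 of the 11 tested Sm and snRNP genes the ratio of null to control had opposite signs in the title sets, a difference that did not pass its test, and for the other 4 it was below 0 in both. The median log2 ratio of the 11 tested was 0.16 among unlettered and -0.49 among lettered libraries. Both lettered nulls lay below the lettered control in all 11, whereas null replicate 1 lay above both of its controls in 5 and below both in 4. The shares of all tested genes with these orders were not counted, so the counts are descriptions only. Of all 51 genes, 12 had a ratio above 0 in the unlettered and below 0 in the lettered set (background 17.4%), these 7 among them. Summed, these genes had 1911 and 1914 CPM in the unlettered controls and 2219 CPM in their null, 116% of the control mean. In the lettered set they had 1454 CPM in the control and 1082 and 961 CPM in the nulls, 74.4% and 66.1% of it. For hnRNP genes the same 3 null libraries held 66.1%, 65.6% and 76.6% of their controls, and for SR genes 68.7%, 65.6% and 75.9%.

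Snrpe, a member of the Sm ring, had 385 and 365 CPM in the unlettered controls and 543 CPM in the null, and 225 CPM in the lettered control and 179 and 159 CPM in the nulls. Snrpd2, which encodes another protein of the ring, had 154 and 168 CPM against 254 CPM, and 121 CPM against 97.2 and 89.2 CPM. Snrpc, the U1 protein that helps U1 to grip the 5′ splice site, had 45.2 and 51.4 CPM against 85.3 CPM, and 44.6 CPM against 30.5 and 26.5 CPM. In all 3 genes the null library stood above the controls in one set and below in the other, by 0.53 and -0.41, 0.66 and -0.37, and 0.82 and -0.64 on the log2 scale. The interaction of group and title set had an unadjusted p of 0.00362, 0.00356 and 0.0043 for Snrpe, Snrpd2 and Snrpc, and an adjusted p of 0.568 for each, so it did not pass. In all, 7 of the 51 genes had an unadjusted interaction p under 0.05 (background 7.21%), 6 of them Sm and snRNP genes and the other Sf3b5, all with the higher ratio in the unlettered set (background 4.34%). None passed after adjustment (background 0.00951%). The unlettered set holds a single null library, so the set and that library cannot be told apart here.

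Snrpg and Snrpd1, both of the ring, showed the same order of sets. Snrpg was at 332 and 313 CPM against 388 CPM and at 166 CPM against 125 and 87.6 CPM, and Snrpd1 at 133 and 156 CPM against 164 CPM and at 88.3 CPM against 66.2 and 50.03 CPM. The U2 protein genes Snrpa1 and Snrpb2 had ratios of 0.050 and 0.16 in the unlettered set and -0.39 and -0.39 in the lettered set. In the other tested genes of the family the ratio was below 0 in both sets. Snrpd3 was at 311 and 306 CPM against 276 CPM and at 180.1 CPM against 113 and 102 CPM, with a ratio of -0.45 (SE 0.17, adjusted p = 0.102). Its ratios within the unlettered and lettered sets, -0.16 and -0.74, still differed, with an unadjusted interaction p of 0.0475 (adjusted p = 0.688). Snrpb, which encodes the ring protein SmB, was at 233 and 253 CPM against 221 CPM and 343 CPM against 249.9 and 239 CPM. The U1 protein gene Snrpa had nearly the same ratio in both sets, -0.45 and -0.46. Snrpf was at 24.6 CPM in control replicate 1 and at 2.92 to 9.58 CPM in the other 5 libraries.

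**Figure D3:**
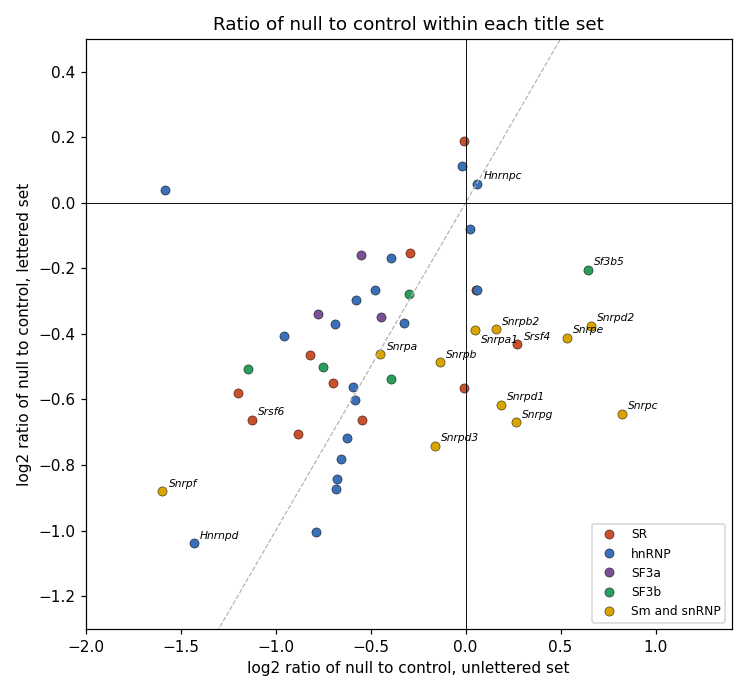
Log2 ratio of null to control within the unlettered set (horizontal axis) and the lettered set (vertical axis) for 49 tested splicing factor genes, coloured by family; the dashed line marks equal ratios, and Srsf12 and Hnrnph3 lie beyond the axis limit of 2. Most SR and hnRNP genes lie at the lower left, below 0 on both axes, and 7 Sm and snRNP genes lie to the right of 0 and below it.

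Across genes, the ratios in the sets went together only loosely. The sets share no library, and over the 50 tested genes other than Srsf12 Pearson's r was 0.19 and Spearman's rho 0.31, with 0.26 and 0.47 once the Sm and snRNP genes were left out as well (39 genes). Ratios were below 0 in both sets for 34 of the 51 (background 32.5%).

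The title sets themselves differed in the splicing factor genes, whatever the genotype. With group in the model, 13 were lower in the unlettered than in the lettered set (background 17.7%) and 10 were higher (background 10.9%). Lower were 6 SR genes, 6 hnRNP genes and Sf3a2, and higher were 6 Sm and snRNP genes, 3 hnRNP genes and 1 SR gene. Srsf6, Srsf4 and Srsf9 stood furthest apart, with log2 ratios of unlettered to lettered of -2.52, -2.46 and -2.46, and Snrpg, another Sm ring gene, was at 1.41 the other way. The share of G and C in the protein-coding transcripts had a median of 52.5% in the 13 lower genes, 46.3% in the 10 higher and 45.6% in the 28 not called. Over the 51 genes the set ratio and this share gave Pearson's r = -0.32 and Spearman's rho = -0.29, against -0.21 and -0.19 over 10406 tested genes with an annotated transcript. The points share the same libraries. Of the lower genes, Hnrnpab, Hnrnpd, Hnrnpl, Hnrnpu, Sf3a2, Srsf1, Srsf2 and Srsf4 overlap a gene on the opposite strand. Hnrnpul1, Hnrpll, Srsf6, Srsf9 and Srsf11 do not. Among the higher genes only Snrpd3 has such an overlap, as have some of the 28 not called. The parts of base composition and of this overlap in the set difference were not tested. The tables of the unlettered set also carry other formatting than those of the lettered set.

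**Figure D4:**
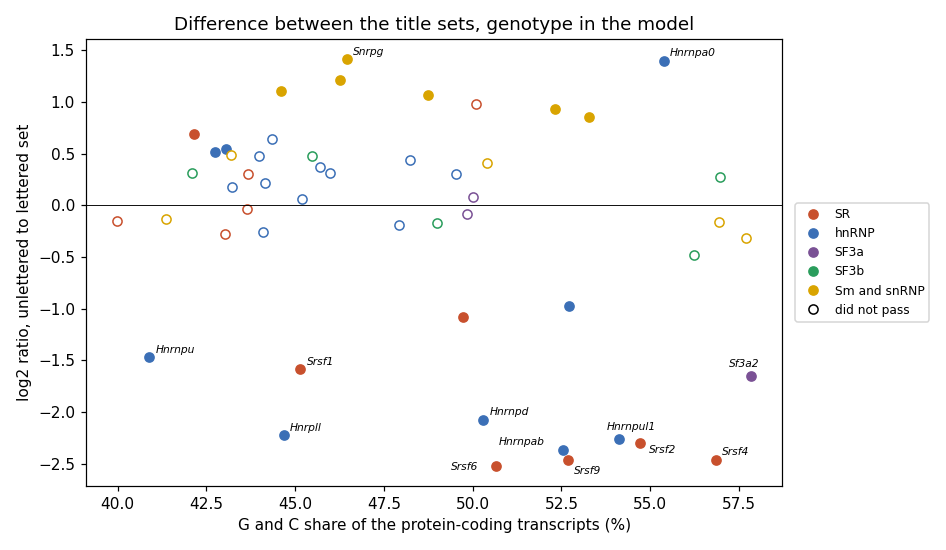
Log2 ratio of the unlettered to the lettered set (vertical axis), with genotype in the model, against the G and C share of the protein-coding transcripts in percent, for the 51 tested genes; filled points passed an adjusted p under 0.05. Several SR and hnRNP genes lie near -2, and 6 Sm and snRNP genes lie above 0.8.

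Levels were compared between genes as CPM per kilobase of transcript, taking the median length of a gene's GENCODE protein-coding transcripts. Hnrnpk came first, at 1344, 1429.6 and 969.9 CPM per kilobase in control replicates 1, 2 and 3. Hnrnpa2b1 followed at 1055, 1080.2 and 757 CPM per kilobase. Next were Hnrnpf, at 740.3, 789 and 461 CPM per kilobase, and Snrpe, at 766, 725 and 446 CPM per kilobase, whose ranges over the controls overlapped. The ranges of Hnrnpk and Hnrnpa2b1 overlapped as well, but Hnrnpk was the higher in each control library. That order rests on the lengths used, 952 bases for Hnrnpk and 1642.5 bases for Hnrnpa2b1. In CPM, Hnrnpa2b1 was the higher in each control library, with control means of 1584 CPM against 1188 CPM. Among SR genes Srsf7, at 281, 297 and 243 CPM per kilobase, was the highest in the unlettered controls, and Srsf2, at 75.1, 86.7 and 351 CPM per kilobase, in the lettered control. Sf3b2 led the SF3 genes in each control, at 91.5, 106.6 and 81.3 CPM per kilobase. That lead, too, rests on the lengths used, 2077.5 bases for Sf3b2 and 1820 bases for Sf3a3, the next. The transcripts of Sf3b2 held 3221 distinct 50-base words and those of Sf3a3 1771, so a longer length for Sf3b2 could turn the order. Snrpe, at a length of 503 bases with 1434 such words, carries the same limit. In null replicate 1 Snrpe, at 1079 CPM per kilobase, stood above Hnrnpk, at 928 CPM per kilobase, an order found in no other library.

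The rest of the splicing machinery was described with a list of 170 further genes in the tables, 167 of them tested. Of these, 21 fell (12.6%, with the same background of 4.16%) and 2 rose (1.20%, background 8.65%), with a median log2 ratio of -0.33. With group alone edgeR called 0 of them, as it did with Y-linked transcripts in the model. In these fits 22 and 24 of the 167 had an unadjusted p under 0.05. With group alone so did 1641 of all 10512 tested genes, a larger share. For the fit with Y-linked transcripts that count over all genes was not taken. DESeq2 with the title set called 37 lower. Leaving out control replicate 1, 2 or 3 left 7, 5 or 6 lower, leaving out null replicate 1 or 2 left 1 or 7, and leaving out null replicate 3 gave 32. The counts over all tested genes in these fits, given above, moved too. By sub-list, 4 of 13 U2AF and branch point genes fell, 2 of 27 of the U4/U6.U5 and other snRNP proteins, 2 of 22 of the Prp19 complex and catalytic steps, 1 of 13 Lsm genes, 5 of 23 SR-related genes and SR kinases, 5 of 33 other RNA-binding regulators, 1 of 16 genes of snRNP assembly and 1 of 11 exon junction genes. None of the 9 minor spliceosome genes was called by edgeR or DESeq2, 0 had an unadjusted p under 0.05, and their median was 0.040.

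Near the branch point, the helicase gene Ddx46, which remodels U2 with SF3b, fell by 0.72 (SE 0.17, adjusted p = 0.0176) and Cherp by 0.83 (SE 0.23, adjusted p = 0.035) on the log2 scale. Prpf8, the U5 protein at the heart of the spliceosome, went from 145 and 163 CPM to 82.0 CPM in the unlettered set and from 123 CPM to 55.5 and 93.0 CPM in the lettered set (log2 ratio -0.82, SE 0.21, adjusted p = 0.0272). Prpf6, which bridges U5 and U4/U6, went the other way. It was at 69.2 and 53.5 CPM in the unlettered controls and 126.7 CPM in the null, and at 57.3 CPM in the lettered control and 96.3 and 126.1 CPM in the nulls. All nulls lay above all controls (log2 ratio 1.003, SE 0.19, adjusted p = 0.00617). Slu7, a second-step factor, also rose, by 0.85 (SE 0.24, adjusted p = 0.0356), with 52.2, 47.9 and 49.3 CPM in controls and 127, 71.6 and 54.4 CPM in nulls.

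Other genes that fell came from several steps. Cwc22, which loads the exon junction complex, had a log2 ratio of -1.18 (SE 0.24), and Cdc5l of the Prp19 complex -0.74 (SE 0.20). Celf1, a regulator that binds GU-rich RNA, fell by 1.14 (SE 0.16, adjusted p = 0.000978), from 108.0 and 119 CPM to 49.5 CPM and from 220.5 CPM to 102.8 and 104.6 CPM. Syncrip, which is also named hnRNP Q but not by its symbol, had a ratio of -1.002 (SE 0.23), and Wdr77, a partner of the enzyme that methylates Sm proteins, -0.97 (SE 0.21). Srrm2 and Rnps1, both SR-related, had ratios of -0.69 (SE 0.17) and -0.55 (SE 0.15), the RNA helicase gene Ddx39b -0.61 (SE 0.16) and Snrnp40 of the U5 particle -0.66 (SE 0.19). Lsm14a, the only Lsm gene called, had -1.07 (SE 0.23). It was listed with the Lsm family, and a part in splicing is not implied. All genes named in this paragraph had an adjusted p under 0.05 in edgeR's set-adjusted test.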

How the data were processed

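The data are 6 tables of whole-number counts per gene symbol, deposited by the authors without normalization. Per the submitters' processing notes, FastQC, Trimmomatic (0.32), TopHat2 (2.1.0), HTSeq (0.6.1), edgeR and the build mm9 were named. No strand setting is stated, so reads of genes that overlap on opposite strands, as 19 of the 52 genes do, cannot be told apart. Of the 15 genes that fell, 7 have such an overlap, namely Hnrnpab, Hnrnpd, Hnrnpf, Hnrnpu, Sf3b3, Srsf1 and Srsf2. In the unlettered set, 25 gene symbols in each table had become dates and were restored, and the counter's summary lines were dropped before scaling and testing. Those lines put 42.9% (control replicate 1), 7.72% (control replicate 2) and 6.07% (null replicate 1) of reads outside any feature.

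The tests used edgeR 4.0.16 under R 4.3.3 (filterByExpr on group, TMM, estimateDisp, glmQLFit with robust=TRUE, glmQLFTest, 2-sided, Benjamini-Hochberg adjustment at 0.05 over all 10512 tested genes), with title set and group as terms and 3 residual degrees of freedom. A within-set ratio is the null minus the control mean of log2 CPM, at prior count 2. The script was tested on simulated data. DESeq2 1.42.0 was an alternative. No library duplicated another of its group, as their counts gave chi-square values per degree of freedom from 21.9 to 369.1. Replicate numbers only name libraries. The p-values reflect spread among the libraries at hand, part of which may be technical. Transcript lengths, base composition and shared 50-base words came from GENCODE M21, which matched all 52 genes and 10406 of the tested ones, and no mm9 coordinates were used. The genes, the further lists, the motifs and the tests were chosen with earlier results of these data known. Named were all called genes, in each family the gene with the highest mean CPM and that with the smallest p, the 3 with the largest set difference and the 3 with the smallest interaction p, the untested gene, and at most 2 called genes per direction in each further list. Other genes were named after their values were seen, as were the further marker and promoter examples.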

Additional observations from a re-analysis of the deposited data

How the results depend on the processing

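No paired analysis was possible because the labels number no replicates: the numbers used here follow accession order, only name libraries and pair none. Of all tested genes, 909 rose and 437 fell in the set-adjusted fit; among the splicing factor genes 1 was called higher and 15 fell, and among the further splicing genes 2 and 21. Scaling by DESeq2 size factors gave 873 and 520, 1 and 15, and 2 and 24. With group alone these counts were 120 and 1, 0 and 0, and 0 and 0, with a median ratio of -0.37 over the splicing factor genes. With title set and Y-linked transcripts they were 161 and 62, 0 and 2, and 0 and 0, with a median of -0.33. The DESeq2 Wald test gave 882 genes lower and 37 further splicing genes lower. Without a filter 723 genes fell, the median of the splicing factor genes was -0.48, and the median over all genes moved by 0.16. Without globin genes 1 further gene rose and the median was -0.49. Leaving out 1 library at a time gave 162 to 869 genes higher and 40 to 734 lower, 0 to 1 and 0 to 17 splicing factor genes, 0 to 3 and 1 to 32 further genes, and medians of -0.52 to -0.41. Without null replicate 1 or control replicate 3 a set no longer compares the groups.

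Some signs turned. With group alone the ratios were 0.093 for Hnrnpab, 0.12 for Srsf2, 0.39 for Srsf4, 0.21 for Srsf9, -0.0081 for Snrpd2 and -0.15 for Snrpe, and with Y-linked transcripts 0.013 for Srsf9. Leaving out single libraries gave Snrpc values from -0.65 to 0.80, Snrpe from -0.42 to 0.52, Snrpd2 from -0.38 to 0.64 and Srsf4 positive values of 0.023 and 0.26; Snrpc was at -0.099 without control replicate 1. The cause was not tested. Srsf12, Hnrnpa1, Hnrnph3 and Snrpf had the lowest mean CPM of the tested splicing factor genes, so their ratios are the least precise for depth, and each set holds 3 libraries.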
